A study of Mus musculus with 9 samples.

Results

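Mpo, Elane, Prtn3 and Ctsg, the 4 genes described here, encode the enzymes that fill the primary (azurophil) granules of neutrophils. Mpo encodes myeloperoxidase, the haem enzyme that makes hypochlorous acid, and Elane, Prtn3 and Ctsg encode the serine proteases neutrophil elastase, proteinase 3 and cathepsin G. The genes were chosen by name, with earlier results of these data known, and all 4 were found among the 23499 genes of the deposited blood table. Their transcripts are made at the myeloblast and promyelocyte stages in the bone marrow and are switched off as the neutrophil matures, so that a circulating neutrophil carries the proteins but little of the mRNA. In blood the transcripts are known as marks of early granulocytic cells, while genes of secondary and tertiary granules such as Ltf and Camp are transcribed later in the same lineage.

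The measurements came from peripheral blood mononuclear cells of female 129SvE mice, measured with Seq-Well, in which cells settle with barcoded beads in an array of tiny wells and their mRNA is tagged there. The 5 arthritic mice were labelled sick with rheumatoid arthritis, with a disease stage of 1.5, 2, 1.5, 1.5 to 2 and 2 to 2.5 in mice 1, 3, 4, 5 and 6. The 4 healthy mice, 1 to 4, had a disease stage of 0. Neither the age of the mice nor the way the arthritis arose is given in the sources used here. Each column of the table belongs to 1 barcode and carries a mouse and a cell class that the authors named after reference cell types, and a second table holds columns from joints. Levels are given as SPM, the signal of a gene per 1000000 of the total signal of a column, class or mouse. They are not divided by transcript length, so they are compared between groups and classes within a gene and not between genes.

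The arthritic mice gave 502 to 1027 columns each and the healthy mice 26 to 201, with totals of 8350920 to 13557201 and 330950 to 2053973 signal. Hemoglobin transcripts took between 0.630% and 50.0% of the signal of an arthritic mouse and between 1.68% and 55.0% of that of a healthy mouse. Of the 4310 blood columns, 1313 had the same value as another column in all genes, 734 matched a column of another mouse in this way, and 719 (16.7%) matched a column of the joint table, although only 1 barcode occurred in both tables. Of the 302 healthy columns, 59 matched an arthritic column. Mice, classes and tables therefore share part of their values. Among the 6 classes with over 5 columns, the class named common myeloid progenitor, called CMP below, was highest for all 12 cell cycle genes. It was also highest for 10 of 16 erythroid genes. Among them were Car1 (1413 SPM), a carbonic anhydrase of red cell precursors, and Klf1 (176 SPM), an erythroid transcription factor. Of 10 progenitor surface and cytokine receptor genes, 3 were highest in the CMP class, among them Kit (70.9 SPM) and Cd34 (35.8 SPM). Myeloid dendritic cells were highest for 5 of these 10. The granulocyte class was highest for all 9 measured genes of secondary and tertiary granules, with Ngp at 15467 SPM and Camp at 13719 SPM. The data therefore go against a purely myeloid reading of the CMP name, which is used here as the authors' label only.

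The sequences before the start of each gene are shown because the 4 transcripts were found in the same columns. Each line holds the 250 bases before the RefSeq start on the strand of the gene, in build GRCm38.p6 of the reference strain rather than of 129SvE. The stretch lies at chr11:87793534-87793783 (plus strand) for Mpo, chr10:79886062-79886311 (plus) for Elane, chr10:79879417-79879666 (plus) for Prtn3 and chr14:56102575-56102824 (minus) for Ctsg. Capitals mark AGGAAGT, a core of the ETS family bound by the myeloid factor PU.1, and TATAA, the TATA box core, on either strand.

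Mpo: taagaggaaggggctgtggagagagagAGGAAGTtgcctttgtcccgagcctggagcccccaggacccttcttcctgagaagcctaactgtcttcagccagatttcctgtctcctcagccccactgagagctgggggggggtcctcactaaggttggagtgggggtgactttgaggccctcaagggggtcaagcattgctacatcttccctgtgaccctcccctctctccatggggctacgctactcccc

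Elane: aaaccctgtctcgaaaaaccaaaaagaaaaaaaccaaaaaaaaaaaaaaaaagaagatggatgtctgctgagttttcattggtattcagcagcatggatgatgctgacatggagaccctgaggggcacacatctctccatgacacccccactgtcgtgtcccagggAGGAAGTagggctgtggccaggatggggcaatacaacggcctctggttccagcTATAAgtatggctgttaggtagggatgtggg

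Prtn3: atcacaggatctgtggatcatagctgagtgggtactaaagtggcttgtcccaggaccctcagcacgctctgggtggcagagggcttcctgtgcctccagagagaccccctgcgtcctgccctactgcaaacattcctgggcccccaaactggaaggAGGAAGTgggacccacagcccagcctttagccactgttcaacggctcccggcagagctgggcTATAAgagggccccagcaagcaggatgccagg

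Ctsg: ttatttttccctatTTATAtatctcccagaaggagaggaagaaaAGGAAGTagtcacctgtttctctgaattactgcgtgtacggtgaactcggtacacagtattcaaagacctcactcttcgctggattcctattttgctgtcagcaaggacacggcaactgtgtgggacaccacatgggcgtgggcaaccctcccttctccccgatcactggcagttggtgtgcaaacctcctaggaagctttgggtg

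AGGAAGT occurred once in each of the 4 sequences, at bases 217 to 223 before the start of Mpo, 78 to 84 before Elane, 88 to 94 before Prtn3 and 200 to 206 before Ctsg. It was present in 7.69% of the 32851 sequences of the same length in the table. TATAA lay at bases 27 to 31 before the start of Elane and 28 to 32 before Prtn3, and on the opposite strand at bases 232 to 236 before Ctsg, and 22.8% of all sequences held it. The short MYB core AACNG was found in all 4, and in 74.2% of all sequences. The C/EBP pattern TTGCNNAA was in none of the 4 and in 9.56% of all. Both strands were searched, none of the matches overlapped another, and the motifs were picked with the sequences in view, so these matches describe the letters only. Elane and Prtn3 are neighbours on chromosome 10. The gene on the other side of Elane is Cfd, which encodes complement factor D, and it stood at 0.242 SPM in the CMP class and at 0 SPM in granulocytes, where Elane had 1144 and 399 SPM and Prtn3 506 and 213 SPM. Ctsg lies on chromosome 14 in a cluster of related proteases, and its nearest protein-coding neighbour is Mcpt8, a protease of basophils.

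In blood the 4 genes were highest in the CMP class among the 6 larger classes, with the granulocyte class next. Over all CMP columns, 193 in number, Mpo reached 1031 SPM, Elane 1144 SPM, Prtn3 506 SPM and Ctsg 292 SPM. Without arthritic mouse 1 the CMP levels were 606 SPM for Mpo, 628 SPM for Elane, 301 SPM for Prtn3 and 182 SPM for Ctsg. Over the 1905 granulocyte columns Mpo reached 308 SPM, Elane 399 SPM, Prtn3 213 SPM and Ctsg 69.2 SPM. Because the authors named the classes from the same columns, these levels are a description with no test.

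The other larger classes held little of the 4 transcripts. The class named after foxP3 T cells, in which hemoglobin took 37.6% of the signal, had 30.9 SPM of Mpo, 13.8 SPM of Elane, 14.6 SPM of Prtn3 and 5.79 SPM of Ctsg. B cells had 12.0, 11.8, 8.16 and 3.94 SPM in the same gene order, and myeloid dendritic cells 6.73, 7.58, 5.89 and 0 SPM. CD4 T cells, which should lack all 4 genes, had 0.926, 0.926, 2.78 and 0 SPM, and serve as the background. Together the CMP and granulocyte classes held 97.1% of the Mpo signal, 98.5% of Elane, 97.6% of Prtn3 and 95.4% of Ctsg. These shares are pooled and come mostly from arthritic mice. The CMP class held 45.1%, 35.8%, 15.0%, 5.42% and 0% of the Mpo signal of arthritic mice 1, 3, 4, 5 and 6. In healthy mouse 2, with 17 signal of Prtn3 in all, the CMP class held 5.88% and granulocytes 23.5% of it. The granulocyte class alone held 64.4% of the Mpo signal, since it has 1905 columns and the CMP class 193.

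Among the larger classes, the share of columns with any signal was highest in the CMP class for Mpo, Elane and Ctsg but not for Prtn3. Mpo was found in 52.8% of CMP columns, 45.8% of granulocyte columns, 17.5% of foxP3 columns, 6.30% of B cell columns and 1.11% of CD4 T columns. The median total per column was 18742 in CMP, 12397 in granulocytes, 10366 in foxP3, 8769 in B cells and 8448 in CD4 T cells. With every column thinned to 6000 signal, the share with Mpo was 35.8%, 30.7%, 11.2%, 3.77% and 0.444% in the same order. Prtn3 was found in 42.0% of CMP columns and 48.3% of granulocyte columns (24.9% and 31.8% after thinning), although its level was higher in CMP. Ctsg was found in 35.2% of CMP columns and 23.1% of granulocyte columns, and in 0 of the 450 CD4 T columns.

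**Figure D1:**
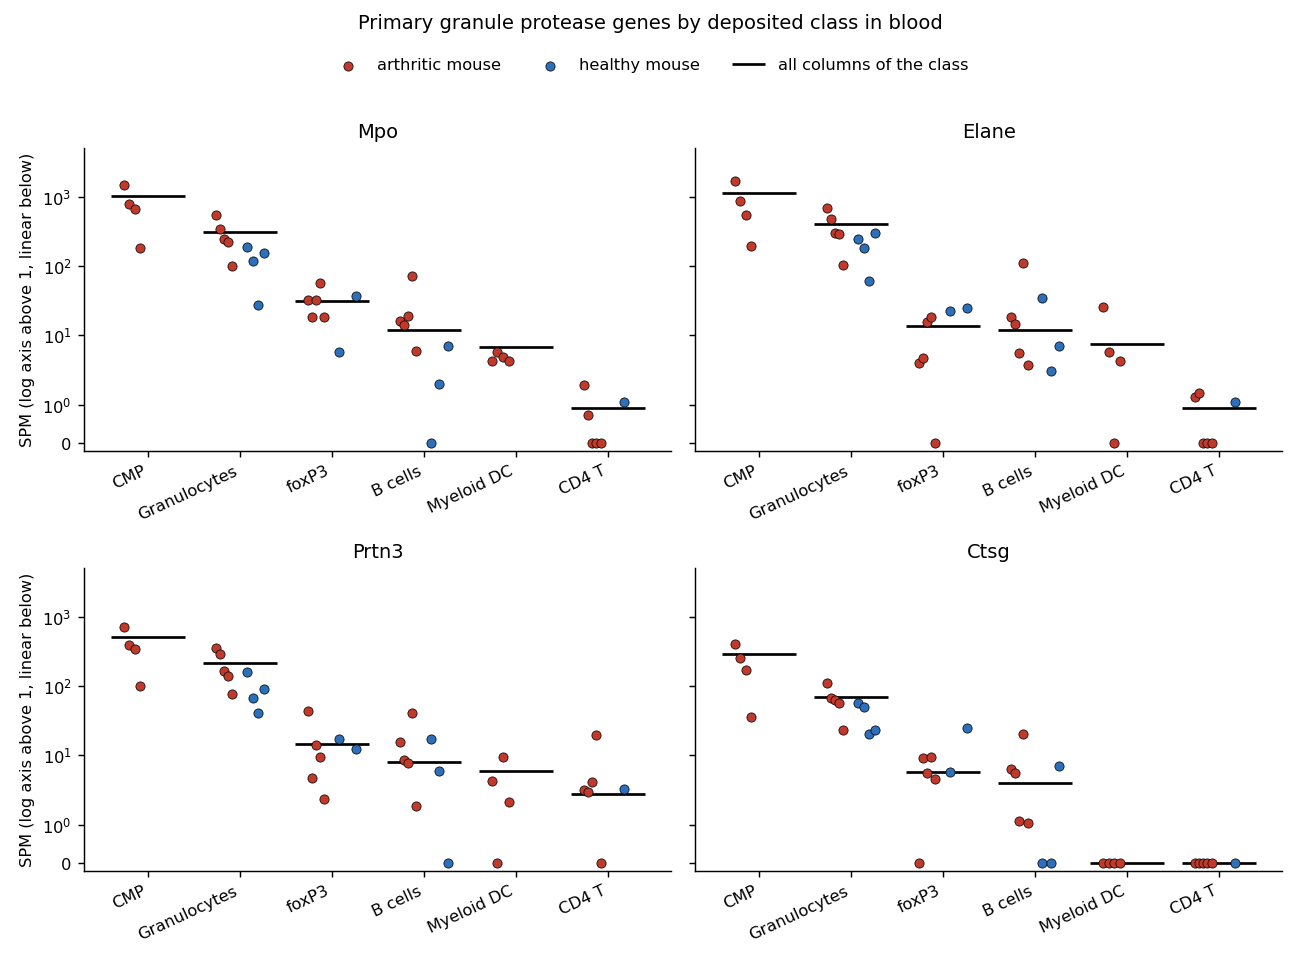
SPM of each gene by deposited class in blood, on a log axis above 1 and a linear one below, with 1 point per mouse with at least 5 columns of the class (arthritic mice left in red, healthy mice right in blue) and a black line at the level over all columns of the class. The black lines of the CMP and granulocyte classes stand above those of the other 4 for every gene while single mice overlap between classes, no healthy mouse has 5 CMP columns, and arthritic mouse 5 is the lowest point in the CMP class for all 4 genes.

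Within the CMP class the level differed widely between mice. Arthritic mice 1, 3, 4 and 5, with 83, 53, 21 and 33 columns, had 1462, 775, 674 and 184 SPM of Mpo. Elane stood at 1667, 873, 539 and 197 SPM in the same mice, Prtn3 at 714, 386, 341 and 101 SPM, and Ctsg at 404, 256, 173 and 36.1 SPM. Mouse 1 was highest and mouse 5 lowest for all 4 genes. The hemoglobin share of these CMP columns was 2.46%, 3.31%, 23.3% and 43.0%, so the mice with less of the 4 transcripts had more hemoglobin, and the part of hemoglobin in the levels was not tested. The mean over these 4 mice was 774 ± 526 SPM for Mpo, 819 ± 629 SPM for Elane, 386 ± 252 SPM for Prtn3 and 217 ± 154 SPM for Ctsg (SD, n = 4).

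Arthritic mouse 6 gave 1 CMP column, which held none of the 4 transcripts. Healthy mice gave 2 CMP columns in all. The column of healthy mouse 4 held 43 signal of Mpo (1808 SPM), 24 of Elane, 15 of Prtn3 and 10 of Ctsg, and that of healthy mouse 2 held 9 of Mpo (480 SPM), 7 of Elane, 1 of Prtn3 and 1 of Ctsg. The class could therefore not be compared between arthritic and healthy mice.

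Over distinct profiles only, the CMP class had 1113 SPM of Mpo, 1247 SPM of Elane, 536 SPM of Prtn3 and 318 SPM of Ctsg. The CMP level was above the granulocyte level in 3 of the 4 mice with enough columns of both. The ratio of CMP over granulocytes for Mpo was 2.70 in arthritic mouse 1, 2.29 in mouse 3 and 2.75 in mouse 4, but 0.839 in mouse 5. For Elane it was 2.42, 1.83, 1.81 and 0.688, and for Prtn3 2.03, 1.34, 2.07 and 0.725. Ctsg had the ratios 3.63, 3.83, 2.78 and 0.629. The order of the 2 classes thus did not hold in mouse 5, whose granulocytes had 220 SPM of Mpo.

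Most CMP columns held little or none of the 4 transcripts. Of the 193 columns, 42 (21.8%) held none of the genes and 46 (23.8%) held all 4. The median column had 37.0 SPM of Mpo, 31.0 SPM of Elane, and 0 SPM of Prtn3 and of Ctsg. The 10 richest columns carried 66.7% of the Mpo signal of the class, 70.4% of Elane, 66.3% of Prtn3 and 67.9% of Ctsg. The richest of all, from arthritic mouse 1, held 400 Mpo, 568 Elane, 203 Prtn3 and 115 Ctsg among 33912 signal, which is 11795, 16749, 5986 and 3391 SPM. It held no Car1. The next held 389 Mpo, 544 Elane, 175 Prtn3 and 108 Ctsg, also from arthritic mouse 1 and also with no Car1.

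The 31 CMP columns at 1000 SPM of Mpo or more came from arthritic mouse 1 (18 of 83 columns, 21.7%), mouse 3 (6 of 53, 11.3%), mouse 4 (4 of 21, 19.0%) and mouse 5 (2 of 33, 6.06%), and from healthy mouse 4 (its 1 column). They were 27 distinct profiles, and all 27 held signal of each of the other 3 genes. Their median was 4056 SPM of Mpo, 3240 SPM of Elane, 1795 SPM of Prtn3 and 1026 SPM of Ctsg. The threshold is a point on a continuous range: the lowest profile inside it had 1155 SPM and the highest below it 881 SPM of Mpo.

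Grouped by their Mpo level, the CMP profiles differed in other genes too, and these medians describe the profiles with no test. In the 27 profiles rich in Mpo the median of Ms4a3, a membrane protein gene of granulocyte and monocyte progenitors, was 1026 SPM. Calr, which encodes the chaperone calreticulin that assists the folding of myeloperoxidase, had a median of 653 SPM, and Myb, a transcription factor of progenitors, one of 455 SPM. Car1 and Klf1 both had a median of 0 SPM there, but each was found in 5 of the 27. The summed SPM of 12 erythroid genes without hemoglobin had a median of 273 there and reached 12296. It was 5129 in the rich profile of healthy mouse 4 and 8333 in that of arthritic mouse 5. In the 76 profiles with no Mpo the medians were 0 SPM for Ms4a3, 103 SPM for Calr, 151 SPM for Myb, 1802 SPM for Car1 and 228 SPM for Klf1. The 64 profiles between the steps had medians of 0 SPM of Ms4a3 and 1267 SPM of Car1.

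Cd34, a marker of progenitors, was found in 22 of the 27 rich profiles and in 9 of the 76 without Mpo. Kit, the receptor for stem cell factor, was found in 24 of 27 and in 42 of 76. Gfi1, a repressor needed for granulocyte development, was found in 12 of 27 and in 0 of 76. The median total was 23787 in the rich profiles and 21229 in those without Mpo. Of the secondary granule genes, Ngp had medians of 667 SPM in the rich profiles and 493 SPM in those without Mpo, and Ltf 65.5 and 75.6 SPM.

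Genes of other lineages were also looked at in the rich profiles. Cpa3, a carboxypeptidase of mast cells and basophils, was found in 4 of 27, and Pf4, a platelet chemokine, in 1 of 27. Mcpt8 was found in 17 of 27 with a median of 37.1 SPM. F13a1, from the list of monocyte genes, was found in 26 of 27 and in 17 of the 76 profiles without Mpo. Irf8, a transcription factor gene, was found in 21 of 27 and in 33 of 76. Over whole classes Irf8 was highest in myeloid dendritic cells (268 SPM, against 65.1 SPM in CMP). Of the 8 monocyte genes, 0 were highest in the CMP class.

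**Figure D2:**
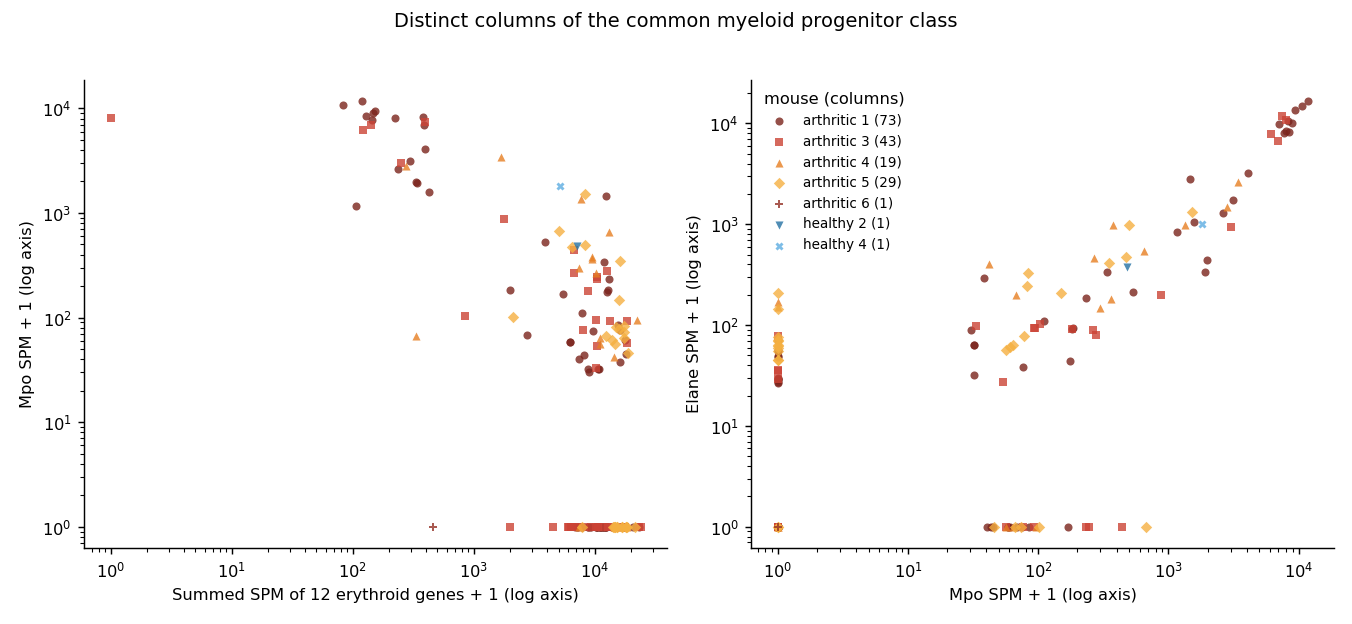
Distinct columns of the CMP class, by mouse. The left panel sets Mpo (SPM + 1) against the summed SPM of 12 erythroid genes without hemoglobin, and the right panel sets Elane against Mpo, all on log axes, and a profile found in several mice is drawn once, for the first of them. The columns richest in Mpo lie at low erythroid signal at the upper left, most others lie at high erythroid signal, and the columns richest in Mpo are also the richest in Elane.

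Across the 167 distinct CMP columns the 4 genes varied together. On the log2(SPM + 1) scale Pearson's r was 0.69 between Mpo and Elane, 0.68 between Mpo and Prtn3, 0.70 between Mpo and Ctsg, and 0.75 between Prtn3 and Ctsg. Against the summed 12 erythroid genes r was -0.64 for Mpo, -0.59 for Elane, -0.64 for Prtn3 and -0.68 for Ctsg. Against 12 cell cycle genes r was weaker and negative, at -0.28 for Mpo and -0.38 for Ctsg. Columns of a mouse share its library and levels within a column share its total, and many values are 0, so these values describe the columns and carry no test.

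The granulocyte class held the larger part of the signal at a lower level over the class. Mpo was found in 872 of the 1905 columns, Elane in 961, Prtn3 in 921 and Ctsg in 441. No gene of the 4 was found in 536 columns (28.1%), and all 4 were found in 298 (15.6%). The median column had 0 SPM of Mpo and 40.1 SPM of Elane, against 37.0 and 31.0 SPM in the CMP class, so the median of Elane was not lower here. The column richest in Mpo had 9332 SPM. At 1000 SPM or more of Mpo there were 87 columns. They made up 5.93% of the granulocyte columns of arthritic mouse 1, 4.95% of mouse 3, 4.17% of mouse 4, 4.60% of mouse 5 and 2.41% of mouse 6. In healthy mice there was 1 such column of 13 in mouse 1, and 0 in mice 2, 3 and 4 with 5, 11 and 20 columns.

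These columns formed 69 distinct profiles with a median of 2228 SPM of Mpo, 2127 SPM of Elane, 1256 SPM of Prtn3 and 450 SPM of Ctsg. All 69 held Ms4a3, with a median of 432 SPM, and Cebpe, a transcription factor of the step from primary to secondary granules, was found in 52. Cebpe was also found in 381 of the 600 profiles with less Mpo and in 377 of the 817 with none. Its medians were 85.9, 88.2 and 0 SPM in these sets, so it was not particular to the rich profiles. Ngp and Ltf had medians of 2414 and 649 SPM in them. In the 600 profiles with less Mpo the medians of Ngp and Ltf were 9009 and 2078 SPM, and in the 817 with none 3433 and 827 SPM. Fcnb, which encodes ficolin B of immature neutrophils, had medians of 984, 227 and 93.0 SPM over the 3 sets in the same order. The summed cell cycle genes had medians of 2885, 1769 and 482 SPM. The median total fell in the same order, at 21094, 14415 and 10638, and its part in these levels was not tested. Across the 1486 distinct granulocyte columns r was 0.55 between Mpo and Elane, 0.04 between Mpo and the summed secondary and tertiary granule genes, and 0.36 between Mpo and the cell cycle genes. Against the 12 erythroid genes r was 0.29 for Mpo, so the sign of both this relation and that with the cell cycle genes was opposite to that in the CMP class. Car1 had a median of 90.9 SPM in the 69 granulocyte profiles rich in Mpo and 0 SPM in the other granulocyte profiles.

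**Figure D3:**
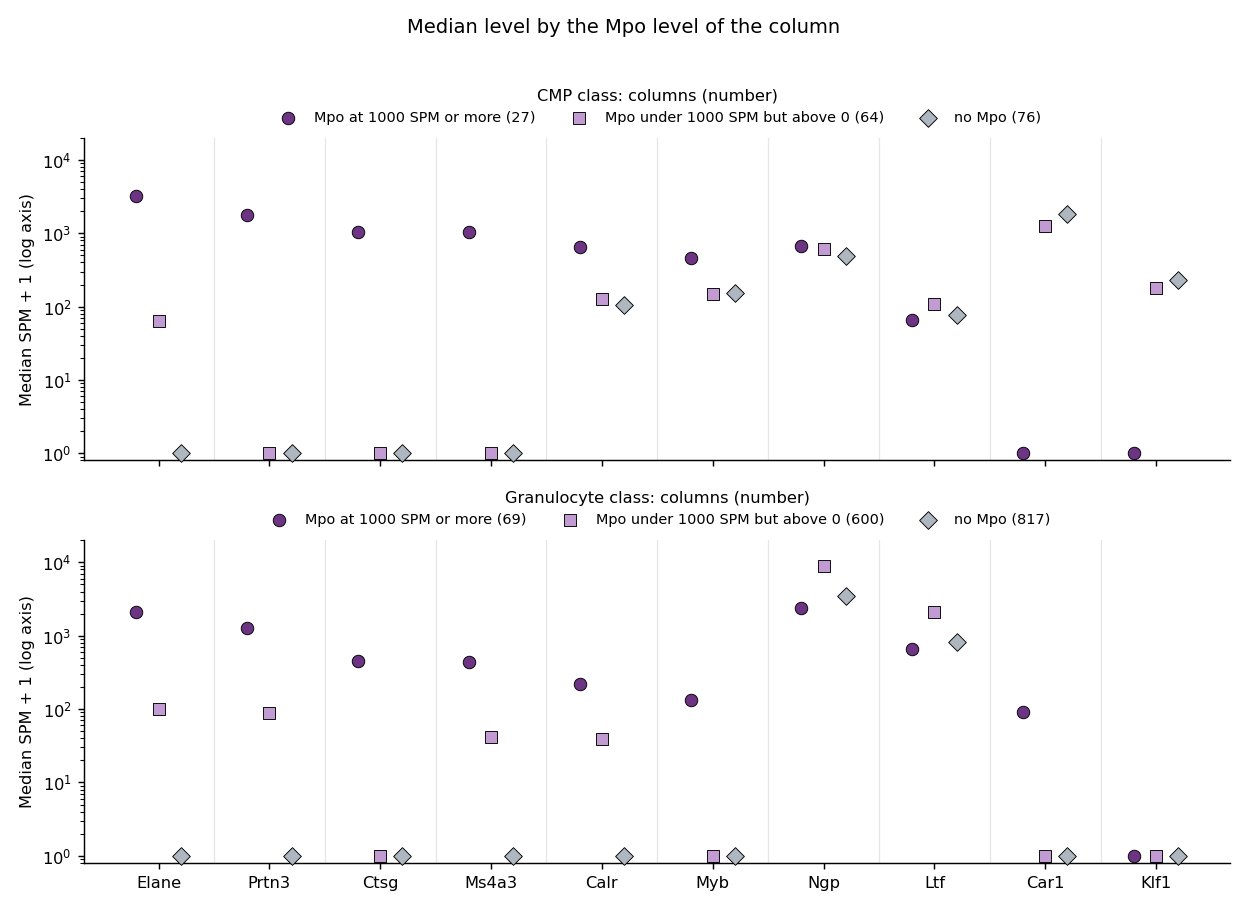
Median SPM + 1 (log axis) of 10 genes in distinct columns of the CMP class (upper panel) and the granulocyte class (lower panel), grouped by the Mpo level of the column, with a point at 1 for a median of 0. The proteases, Ms4a3, Calr and Myb are highest in the columns at 1000 SPM of Mpo or more in both classes, Car1 and Klf1 are at 0 there in the CMP class, and Ngp and Ltf are highest in the granulocyte columns with less Mpo.

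The class named after mast cells was the exception to the joint pattern of the 4 genes. Its 5 columns, from arthritic mice 1, 3 and 4, held 1406 SPM of Mpo and 1252 SPM of Ctsg but 0 SPM of Elane and of Prtn3. They were 2 distinct profiles. One had 14 Mpo and 9 Ctsg among 10403 signal, and the other, found 4 times, had 17 Mpo and 16 Ctsg among 11978, each with 0 Elane and 0 Prtn3. Both profiles also occurred in the joint table. They held Mcpt8 at 735 and 706 signal, Prss34, another basophil protease gene, at 281 and 259, Fcer1a, a chain of the IgE receptor, at 29 and 41, and Cpa3 at 41 and 49. The mast cell genes Cma1 and Kit were both at 0. With 2 profiles there is no replicate measure of this pattern. The 2 columns named after macrophages were a single profile with 2 signal of Elane and 1 of Prtn3 and none of Mpo or Ctsg, and the 1 column named after osteoblasts held none of the 4.

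The genes whose levels were most like those of the 4 were ranked over 38 sums of a class and a mouse with at least 5 columns, among 13623 genes. Ms4a3 came first, with a Pearson r of 0.91 to the mean log2(SPM + 1) of the 4. It was followed by Anxa3 (annexin A3) at 0.85, Aqp1 (a water channel of red cells) at 0.84, Prss57 (neutrophil serine protease 4) at 0.84 and Cd24a (a surface marker of immature neutrophils and red cell precursors) at 0.83. Car2 (carbonic anhydrase 2), E2f8, St3gal5, Prom1 and Tmem40 completed the first 10, with r between 0.83 and 0.81. Between the 4 genes themselves r over the same sums lay between 0.83 for Prtn3 and Ctsg and 0.93 for Mpo and Ctsg. The list contains genes of both red cell and granulocyte precursors. Car2 had 5732 SPM in the CMP class and Ms4a3 291 SPM.

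Ms4a3 and Prss57 were the only other genes of the list of 17 measured primary granule and promyelocyte genes among the first 10. Of those 17 genes, 6 were highest in the CMP class among the 6 larger classes (Ms4a3, Prss57, Cst7, Gstm1, Nkg7 and Calr), 6 in myeloid dendritic cells, 4 in granulocytes and 1 in CD4 T cells. Prss57 had 64.8 SPM in CMP and 30.5 SPM in granulocytes. Ctsc, the protease that activates the granule serine proteases, had 27.8 SPM in CMP and 82.3 SPM in granulocytes. Lyz2, a lysozyme gene active through all stages, had 593 SPM in CMP and 11356 SPM in granulocytes. Of 10 granulocyte and monocyte transcription factor genes, 1 was highest in the CMP class, Myb with 234 SPM. Cebpe was highest in granulocytes, at 186 SPM.

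The arthritic and healthy mice were compared over the sum of all columns of each mouse. The levels of the 4 genes were higher on average in the arthritic mice, but the groups overlapped for each of them and none passed the test. No gene of the 4 had every arthritic mouse above every healthy mouse, which 3.64% of all genes tested did. Mpo stood at 490, 196, 181, 209 and 33.3 SPM in arthritic mice 1, 3, 4, 5 and 6, against 92.3, 9.74, 15.1 and 173 SPM in healthy mice 1, 2, 3 and 4. Arthritic mouse 6 lay below 2 of the healthy mice, and the other 4 arthritic mice lay above all of them. After the TMM scaling used for the test, 2 of the 5 arthritic mice lay above every healthy mouse. Elane stood at 592, 252, 194, 268 and 33.1 SPM in the arthritic mice, against 128, 10.7, 39.3 and 209 SPM in the healthy mice. Of the arthritic mice, 3 were above every healthy mouse, and 2 after TMM scaling.

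Prtn3 had 284, 140, 112, 131 and 24.2 SPM in arthritic mice 1, 3, 4, 5 and 6, against 74.4, 8.28, 27.2 and 80.3 SPM in healthy mice 1 to 4. Ctsg had 117, 50.2, 49.0, 53.6 and 7.54 SPM in the arthritic mice, against 23.8, 1.95, 12.1 and 35.7 SPM in the healthy mice. For both genes 4 of 5 arthritic mice were above every healthy mouse, and arthritic mouse 6 was not. After TMM scaling the number was 4 for Prtn3 and 3 for Ctsg. The healthy values rest on little material: the signal of Mpo was 12849 summed over the arthritic mice and 31, 20, 5 and 97 in healthy mice 1 to 4. In healthy mouse 4, 43 of the 97 came from its single CMP column.

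The mean was 222 ± 166 SPM for Mpo in arthritic mice and 72.5 ± 76.9 SPM in healthy mice (SD, n = 5 and 4). Tested with limma across 8459 genes, on a log2 scale after TMM scaling with a pseudocount of 1, the difference (arthritic minus healthy) was 1.97 ± 0.96 for Mpo (SE, Benjamini-Hochberg adjusted p = 0.392). It was 1.63 ± 0.99 for Elane (adjusted p = 0.442), 1.55 ± 0.83 for Prtn3 (adjusted p = 0.406) and 1.57 ± 0.91 for Ctsg (adjusted p = 0.427). Thus 0 of the 4 genes passed an adjusted p of 0.05, where 0.0473% of all genes tested did. None of them passed at an unadjusted p under 0.05 either, against 13.4% of all genes. The filter level of 10 SPM was reached by 5 arthritic and 3 healthy mice for Mpo, Elane and Prtn3, and by 4 and 3 for Ctsg. The filter asked for 4 mice, so the arthritic mice alone met it for each of the 4 genes and the healthy mice alone did not. The genes could thus enter the test through the group in which they were higher, which limits these tests. The median difference of all genes was 0.26, so the 4 genes, with a median of 1.60, lay above it. A sum over all columns does not separate the share of each class from the level within it. The granulocyte class is therefore given by itself below, and the CMP class had too few healthy columns for that.

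Single mice moved these differences. Without healthy mouse 2, of whose 201 columns 2.49% were granulocytes, the differences were 1.17 for Mpo, 0.70 for Elane, 0.76 for Prtn3 and 0.71 for Ctsg. Without columns identical to a joint column they were 3.17, 1.89, 1.78 and 2.61 in the same gene order. With columns shared between mice left out they were 1.81, 1.68, 1.51 and 1.29. None passed the adjusted test in these settings. The share of CMP columns was 8.08%, 5.50%, 2.91%, 6.57% and 0.126% in arthritic mice 1, 3, 4, 5 and 6, against 0%, 0.498%, 0% and 2.22% in healthy mice 1 to 4, and its part in the difference was not tested.

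**Figure D4:**
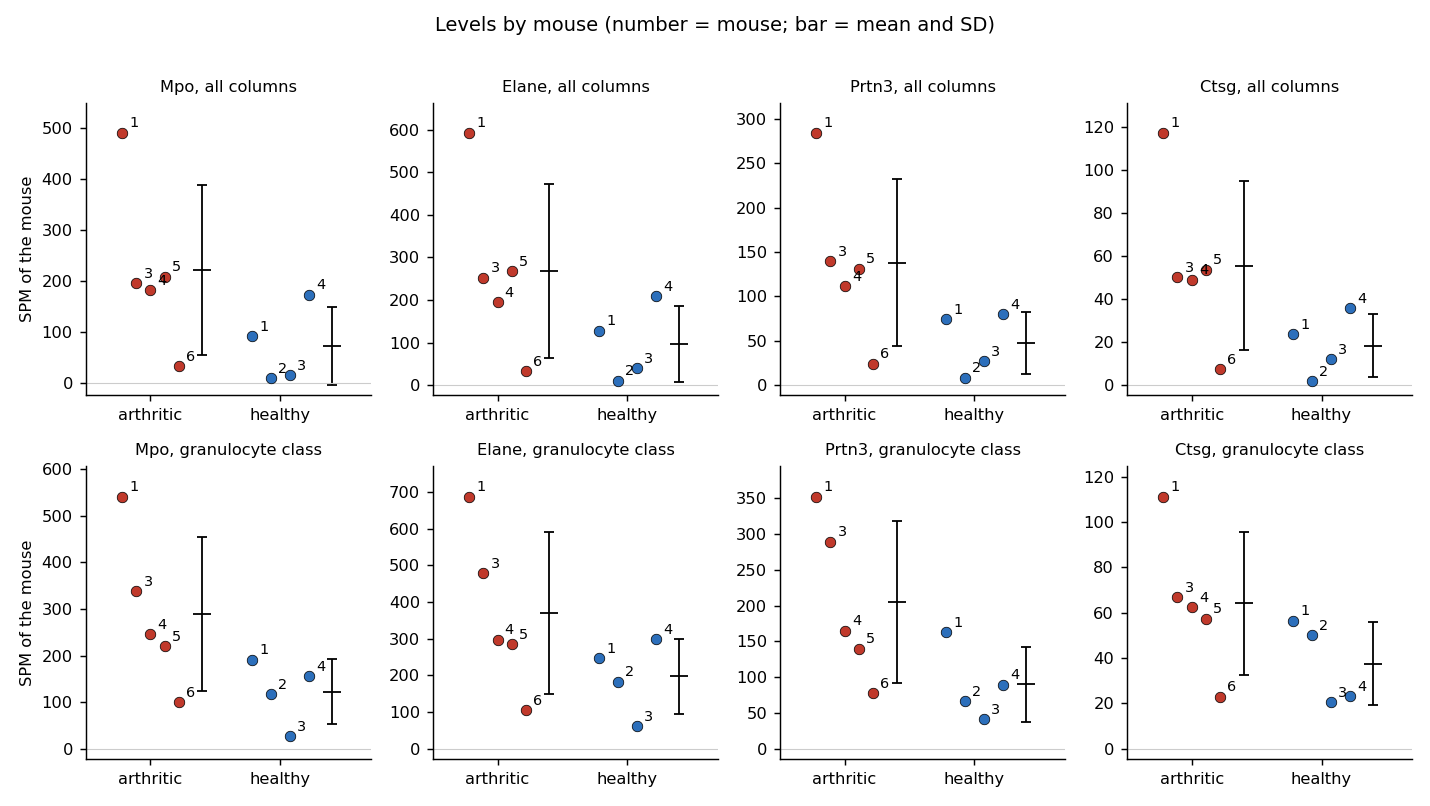
SPM of each gene by mouse over all columns (upper row) and over the granulocyte class (lower row), with arthritic mice left in red and healthy mice right in blue, the mouse number beside each point and a bar for the mean and SD of 5 and 4 mice. Arthritic mouse 1 is highest in every panel, arthritic mouse 6 is the lowest arthritic mouse in every panel, and the groups overlap throughout.

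Within the granulocyte class the arthritic mice again had higher means, and again the groups overlapped for all 4 genes, whereas 8.65% of all genes tested had every arthritic mouse above every healthy mouse. Mpo stood at 541, 338, 245, 220 and 99.4 SPM in arthritic mice 1, 3, 4, 5 and 6, against 191, 117, 27.4 and 156 SPM in healthy mice 1 to 4. Prtn3 stood at 352, 289, 165, 140 and 77.9 SPM in the arthritic mice, against 162, 66.7, 41.1 and 89.6 SPM in the healthy mice. Arthritic mouse 6 was the lowest of its group for both genes and lay within the range of the healthy mice. For Prtn3 arthritic mouse 5 also lay below healthy mouse 1. Above every healthy mouse were 4 of 5 arthritic mice for Mpo and 3 of 5 for Prtn3 (4 for each after TMM scaling).

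Elane had 688, 478, 298, 286 and 105 SPM in the arthritic mice, against 247, 183, 61.7 and 299 SPM in the healthy mice. Ctsg had 111, 66.7, 62.4, 57.4 and 23.0 SPM in the arthritic mice, against 56.5, 50.0, 20.6 and 23.2 SPM in the healthy mice. The groups overlapped for both genes, most widely for Elane, for which 2 of 5 arthritic mice were above every healthy mouse (3 after TMM scaling). The healthy mice contributed 13, 5, 11 and 20 granulocyte columns and the arthritic mice 249 to 489.

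The limma difference in granulocytes was 1.41 ± 0.58 for Mpo (SE, adjusted p = 0.195), 0.95 ± 0.59 for Elane (adjusted p = 0.350), 1.24 ± 0.49 for Prtn3 (adjusted p = 0.182) and 0.82 ± 0.48 for Ctsg (adjusted p = 0.326). None of the 4 passed, where 0.655% of the 7935 genes tested did, and the median of all genes was 0.53. At an unadjusted p under 0.05, 2 of the 4 genes passed (Mpo and Prtn3), against 21.6% of all genes. Without arthritic mouse 6, the difference of Prtn3 was 1.77 with an adjusted p of 0.0370 and that of Ctsg 1.36 with an adjusted p of 0.0476, so both passed, while Mpo (1.97, adjusted p = 0.0544) and Elane (1.58, adjusted p = 0.0718) did not. In that fit 172 of 7535 genes passed, against 52 of 7935 with all mice. Over all alternatives the adjusted p of Prtn3 lay between 0.0370 and 0.360 and that of Ctsg between 0.0476 and 0.652. Prtn3 passed in 2 of 21 alternatives and Ctsg in 1 of 21. With columns shared between mice left out, the difference of Prtn3 was 2.77 and that of Elane 1.68, and with columns identical to a joint column left out that of Mpo was 3.05 and that of Ctsg 2.40, none of them past the adjusted threshold.

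Genes of the same lineage and markers of other cells were tested in the same fits, in which 69.3% of all genes had a positive difference over all cells and 77.3% in granulocytes. Of the 17 other primary granule and promyelocyte genes, 0 passed the test over all cells, 14 had a positive difference and the median was 0.54. Ms4a3 had a difference of 2.15 ± 0.88 (adjusted p = 0.352), Prss57 one of 2.21 ± 1.10 (adjusted p = 0.394) and Fcnb one of 2.53 ± 0.87 (adjusted p = 0.288). All 9 secondary and tertiary granule genes had a positive difference, with a median of 3.06, and 1 of them passed, Cd177, a neutrophil surface protein gene, which rose by 3.85 ± 0.55 (adjusted p = 0.0428). That call was lost in each alternative in which 0 genes were called, such as array weights or no filter. Of 13 erythroid genes 0 passed and the median was -0.02 over all cells. In granulocytes all 13 erythroid genes had negative differences, with a median of -1.36 and 0 past the test. Of 12 cell cycle genes 11 had a positive difference over all cells and 0 passed.

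B cells should lack the 4 transcripts and were tested in the same way over 5 arthritic and 3 healthy mice. Mpo stood at 16.1, 14.2, 19.2, 71.4 and 5.88 SPM in arthritic mice 1, 3, 4, 5 and 6, against 0, 2.02 and 6.94 SPM in healthy mice 1, 2 and 4. Elane stood at 18.2, 14.6, 5.64, 112 and 3.74 SPM in the arthritic mice, against 34.6, 3.02 and 6.94 SPM in the healthy mice. The groups overlapped for both genes, and 3.38% of all genes tested had every arthritic mouse above every healthy mouse. The values of arthritic mouse 5 rest on 7 signal of Mpo and 11 of Elane, and those of the 3 healthy mice together on 3 and 8. Of the 4 genes, 3 passed the filter of 10 SPM in at least 3 mice, all but Ctsg. Mpo passed it through 4 arthritic mice and 1 healthy mouse, so that it entered the test through the group in which it was higher, and its difference is given as a value only. Elane passed it through 3 arthritic and 2 healthy mice, so the arthritic mice alone met the filter, which limits its test. Prtn3 passed it through 2 arthritic mice and 1 healthy mouse. The difference was 2.49 for Mpo. By limma it was 0.47 ± 1.09 for Elane (SE, adjusted p = 0.837) and 1.18 ± 1.15 for Prtn3 (adjusted p = 0.606). None of 9585 genes (0%) was called in B cells, and 677 (7.06%) had an unadjusted p under 0.05. The difference of Elane turned negative in 5 of 20 alternatives, among them those without arthritic mouse 5 (-0.11) and without healthy mouse 2 (-0.28).

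The joint table held 8423 columns in 10 classes. The mice of its columns match none of the samples used here, so only levels pooled by class are given, with no test. The 4 genes were again high in the same 2 classes, at higher levels than in blood. Over the 1498 joint CMP columns Mpo reached 1509 SPM, Elane 1653 SPM, Prtn3 721 SPM and Ctsg 417 SPM, which is 1.46, 1.45, 1.42 and 1.43 times the blood level. These ratios rest on blood levels of which arthritic mouse 1 gave a large part, as described for the CMP class. Over the 6487 joint granulocyte columns Mpo reached 709 SPM, Elane 1042 SPM, Prtn3 452 SPM and Ctsg 170 SPM, or 2.30, 2.61, 2.12 and 2.45 times the blood level.

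The joint levels were above the blood levels also without the columns that the tables share. Of the joint CMP columns 182 (12.1%) were identical to a blood column, and of the blood CMP columns 64 (33.2%) to a joint column. Without them the CMP level of Mpo was 1542 SPM in the joint table and 854 SPM in blood, and that of Elane 1696 SPM and 985 SPM. In granulocytes 968 joint columns (14.9%) and 523 blood columns (27.5%) were shared. Without them Mpo stood at 761 SPM in the joint table and 283 SPM in blood, and Elane at 1140 SPM and 388 SPM. Prtn3 and Ctsg in granulocytes had 484 and 185 SPM in the joint table and 197 and 66.0 SPM in blood.

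In the joint table Mpo was found in 64.8% of CMP columns and 64.7% of granulocyte columns. After thinning to 6000 signal the shares were 51.1% and 46.9%, against 35.8% and 30.7% in blood. The joint foxP3 class, with 45.3% hemoglobin, had 71.7 SPM of Mpo, and the 63 joint B cell columns had 87.8 SPM of Mpo and 115 SPM of Elane. The joint CD4 T columns, 28 in number, had 11.7 SPM of Mpo and 8.76 SPM of Elane, above the 0.926 SPM of each in blood. These joint levels rest on 4 signal of Mpo in 2 columns and 3 signal of Elane in 3 columns. The blood levels rest on 5 signal of each, so the background of both tables is known only roughly. The pattern of the mast cell class was the same, with 1284 SPM of Mpo, 1087 SPM of Ctsg and 0 SPM of Elane and Prtn3 over 17 columns. These were 5 distinct profiles, 2 of them those of the blood table, and in the other 3 Mpo lay between 10 and 18 signal and Ctsg between 14 and 17.

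**Figure D5:**
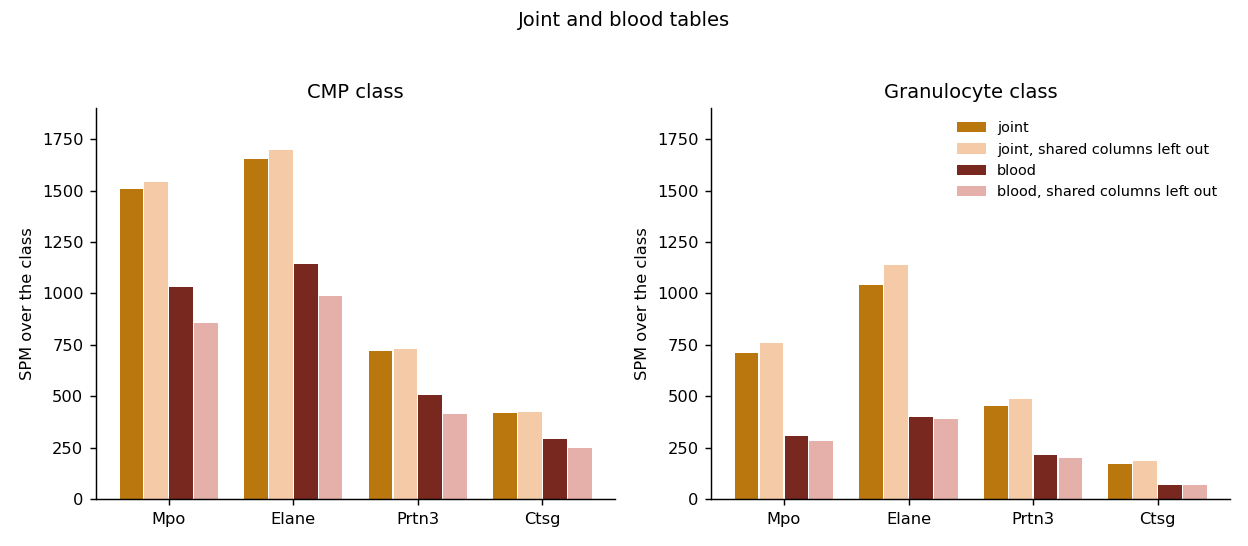
SPM of the 4 genes over all columns of the CMP class (left) and the granulocyte class (right), in the joint table and in blood, with and without the columns that are identical between the tables. Every joint bar is above its blood bar, and leaving out the shared columns raises the joint bars and lowers the blood bars.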

How the data were processed

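Seq-Well libraries came from blood cells of 5 arthritic and 4 healthy mice. Read 2 covered the transcript from its polyA end, and the Drop-seq core protocol was used on the reads, per the labels' protocols. The build was GRCm38.p5, per the submitters' processing notes. How reads were aligned, cells filtered and classes named is not given in the sources used here. Values in the deposited tables are signal, whole numbers per gene and barcode with no common total, and columns identical between mice mean that they were not treated as counts.

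Members and gene lists were chosen with earlier results of these data known. Signal was summed per mouse or class and expressed per 1000000 (SPM). Sums per mouse were scaled with TMM factors (trims of 30% and 5%), put on a log2 scale after adding a pseudocount of 1, kept where at least as many mice as in the smaller group reached 10 SPM, and tested with limma 3.58.1 (R 4.3.3, trend, adjusted p under 0.05). A class entered with 5 columns per mouse. The fit was tested on simulated data. Mice are the replicates, and p-values treat them as independent although they share columns. No counting intervals are given, since columns share content. The alternatives varied scaling, pseudocount, filter, weights, columns and mice. Leaving out columns identical to a joint column, and the unblocked fit of same-numbered mice, were added after the data were seen. Genes named are the 4 members, the 10 most alike by Pearson r over sums of class and mouse (10 SPM in at least 3 sums, unnamed gene models left out) and list genes. Cfd was named as the neighbour of Elane, after its values were seen. Promoters came from RefSeq (GRCm38.p6), where all 4 genes matched. Other steps ran in Python 3.11.15 (pandas 2.3.3, scipy 1.17.1, numpy 2.4.6).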

Additional observations from a re-analysis of the deposited data

Results flagged for a closer look

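In the B cell class arthritic mouse 5 stood apart from the other 4 arthritic mice for 3 of the 4 genes. It had 71.4 SPM of Mpo, 112 SPM of Elane and 20.4 SPM of Ctsg. Its B cell class held 9 columns, with 7, 11 and 2 signal of these genes. The gap to the next mouse, as a share of the range, was above the critical value of Dixon's test in each case, and 24 groups of values were checked. Chance flags about 1 in 20 groups, and the 3 values come from the same 9 columns.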

How the results depend on the processing

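Over all cells the 4 genes had a positive difference and did not pass the test in any alternative run. In granulocytes the differences were positive in all alternatives run, and 2 genes passed somewhere. Prtn3 and Ctsg passed without arthritic mouse 6, and Prtn3 also passed with the replicate number as a block. In B cells Elane turned negative with columns shared between mice left out (-0.40), without arthritic mouse 5 (-0.11), without healthy mouse 2 (-0.28) and in the mice whose number occurs in both groups, with and without the block (-0.57), and Prtn3 with array weights (-0.072), and with 1 mouse left out Elane lay between -0.28 and 1.31. The cause was not tested. Counts of called genes over all cells were 19 with total signal alone, 1 with total signal without hemoglobin genes, 7 with a pseudocount of 5, and 0 with no filter, with array weights or without columns identical to a joint column. They lay between 0 and 64 with 1 mouse left out, the highest without arthritic mouse 6. In granulocytes the count was 5 with median-of-ratios factors, 2 with total signal alone, 175 with a pseudocount of 5, 2801 with no filter, 283 with array weights, 282 with columns shared between mice left out, 761 without columns identical to a joint column, and between 0 and 883 with 1 mouse left out, the highest without healthy mouse 2. In B cells it was 0 to 59 with 1 mouse left out, the highest without healthy mouse 2. Some mice of the 2 groups share replicate numbers. The deviations of same-numbered mice correlated at -0.004, -0.29 and 0.30 over all cells, and at 0.014, -0.063 and 0.18 in granulocytes. With 3 pairs these values show no steady pairing, but they cannot decide whether the numbers pair the mice. With the replicate number as a block, the count was 40 over all cells (29 in the same mice without the block), 190 in granulocytes (211) and 13 in B cells (0), and Prtn3 in granulocytes had a difference of 1.62 with an adjusted p of 0.0395. In the joint table, distinct columns only gave 1489, 1629 and 707 SPM for Mpo, Elane and Prtn3 in CMP and 646, 943, 413 and 162 SPM for Mpo, Elane, Prtn3 and Ctsg in granulocytes, and leaving out columns identical to a blood column gave 1542, 1696 and 425 SPM for Mpo, Elane and Ctsg in CMP and 761, 1140, 484 and 185 SPM in granulocytes. Depth limits the healthy values: 5 to 97 signal of Mpo per mouse.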
